A study of Mus musculus with 10 samples.

Results

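The T cell receptor complex and its coreceptors were followed through 10 CT26 tumors as 10 genes, chosen by symbol from the 36009 genes of the deposited table: Cd3d, Cd3e, Cd3g and Cd247, the coreceptor genes Cd4, Cd8a and Cd8b1, the kinases Lck and Zap70, and the costimulatory receptor Cd28. CT26 is a mouse colorectal carcinoma line, grown here under the skin of wild-type female BALB/c mice aged 8 to 12 weeks. Each tumor was partly resected (90% of the mass removed) and the removed, untreated piece was sequenced as polyA RNA. A hydrogel carrying poly(I:C), a double-stranded RNA mimic, was then laid on the residual tumor, and the mouse was called a responder where the tumor regressed completely or a non-responder where growth was not delayed. The 6 responders and 4 non-responders thus share line, strain, sex and lack of treatment at sampling, and are named by an outcome observed later. The tumors were picked from both ends of that outcome, so intermediate courses are not represented, and each group is a model of 1 transplanted cell line in hosts with their own lymphocytes. All values come from bulk tumor, in which fewer T cells and less RNA per T cell cannot be told apart.

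The T cell receptor is a pair of variable chains that bind peptide on MHC molecules but carry almost no signaling tail of their own. The CD3 chains (gamma, delta and epsilon) and the zeta chain encoded by Cd247 supply the tails with tyrosine motifs. Coreceptors bind the MHC molecule and bring in Lck: CD4 on helper and regulatory T cells reads class II, while the CD8 alpha-beta pair on cytotoxic T cells reads class I. Lck phosphorylates the motifs, the kinase ZAP-70 docks there and passes the signal on, and CD28 adds the costimulatory signal from CD80 and CD86. Several of these genes are not particular to T cells. NK cells also express Cd247, Lck and Zap70, some dendritic cells carry Cd8a, and CD4 is found on some myeloid cells.

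The members fall on 4 chromosomes of the GRCm38 genome. Cd3g, Cd3d and Cd3e lie side by side on chromosome 9, and Cd3g and Cd3d point away from each other with 1355 bases between their starts. Cd8b1 and Cd8a are neighbours on chromosome 6, on the same strand. The upstream sequences of the CD3 genes are given because these 3 neighbours varied together across the tumors. Cd8a, on another chromosome, followed their mean level nearly as closely (Pearson r = 0.989). A link between position or upstream sequence and level was not tested. Each line holds the 250 bases before the start, 5′ to 3′ on the gene's strand, from RefSeq's GRCm38.p6 annotation. Capitals mark matches on either strand to 5 short cores: the ETS core AGGAAG, the E protein E-box CACCTG, the RUNX core TGTGGT, the TCF/LEF core CTTTGA and the GATA core AGATAA. No 2 of these cores share a position in the sequences printed.
Cd3d (chr9:44981536-44981785, plus strand): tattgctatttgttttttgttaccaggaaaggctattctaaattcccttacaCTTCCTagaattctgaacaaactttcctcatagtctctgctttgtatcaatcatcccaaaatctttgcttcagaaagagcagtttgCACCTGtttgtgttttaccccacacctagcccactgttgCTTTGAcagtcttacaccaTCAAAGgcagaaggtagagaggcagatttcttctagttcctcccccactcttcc
Cd3e (chr9:45009612-45009861, minus strand): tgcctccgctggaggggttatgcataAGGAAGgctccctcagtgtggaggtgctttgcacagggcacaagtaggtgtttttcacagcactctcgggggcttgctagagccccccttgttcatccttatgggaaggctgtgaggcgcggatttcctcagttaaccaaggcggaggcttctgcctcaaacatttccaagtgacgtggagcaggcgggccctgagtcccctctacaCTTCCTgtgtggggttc
Cd3g (chr9:44980432-44980681, minus strand): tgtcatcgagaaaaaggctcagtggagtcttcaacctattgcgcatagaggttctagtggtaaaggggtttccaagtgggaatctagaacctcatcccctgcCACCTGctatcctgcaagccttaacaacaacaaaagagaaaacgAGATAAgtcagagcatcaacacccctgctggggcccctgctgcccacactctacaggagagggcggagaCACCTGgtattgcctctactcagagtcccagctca
Cd3d held an ETS, an E-box and a pair of TCF/LEF matches, Cd3e a pair of ETS matches, and Cd3g a pair of E-box matches and a GATA match. Among 32817 windows of the same length upstream of all annotated starts, 29.5% held the ETS core, 17.2% the E-box, 14.0% the RUNX core, 13.8% the TCF/LEF core and 9.99% the GATA core. Over the 10 windows of the 7 members for which a sequence was at hand, 7 held the ETS core, 6 the E-box, 2 the RUNX core, 2 the TCF/LEF core and 1 the GATA core. Lck and Zap70 have more than 1 window each, so these windows are not independent. The ETS windows came from Cd247, Cd3d, Cd3e, Lck and Zap70, and the E-box windows from Cd247, Cd3d, Cd3g, Lck and Zap70. A match describes letters in a window and is not evidence of a bound factor.

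The deposited estimated counts summed to between 29065126 and 38042544 per responder tumor and between 23374649 and 32986456 per non-responder tumor, so responders were on the whole sequenced more deeply. Values are given as CPM, a gene's count over the library total scaled by the trimmed mean of M values (TMM). All 10 members passed the filter on low counts, with the lowest count of any member in any tumor at 32.3 (Cd8b1 in non-responder 1). Each tumor came from its own mouse and was counted as 1 replicate, and the p-values measure the spread between these mice. Differences are edgeR log2 fold changes, responder over non-responder, and p-values are adjusted over 16041 genes.

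Every member was higher on average in the responder tumors, but only Cd8b1 and Lck passed the test. The largest differences were in the CD8 coreceptor genes Cd8a and Cd8b1 (3.75-fold and 3.51-fold) and the smallest was in Cd4 (1.20-fold). The median log2 fold change of the 10 members was 1.11, beside −0.01 over all genes tested. Of the 10 members, 2 were called at an adjusted p under 0.05, both higher in responders, where 8.06% of all genes were called in either direction and 4.71% as higher. At an unadjusted p under 0.05 the count was 9 of 10, where 29.1% of all genes reached that level. Cd4 was the member that did not. No member separated the groups completely, where 5.84% of all genes did so with responders higher.

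**Figure D1:**
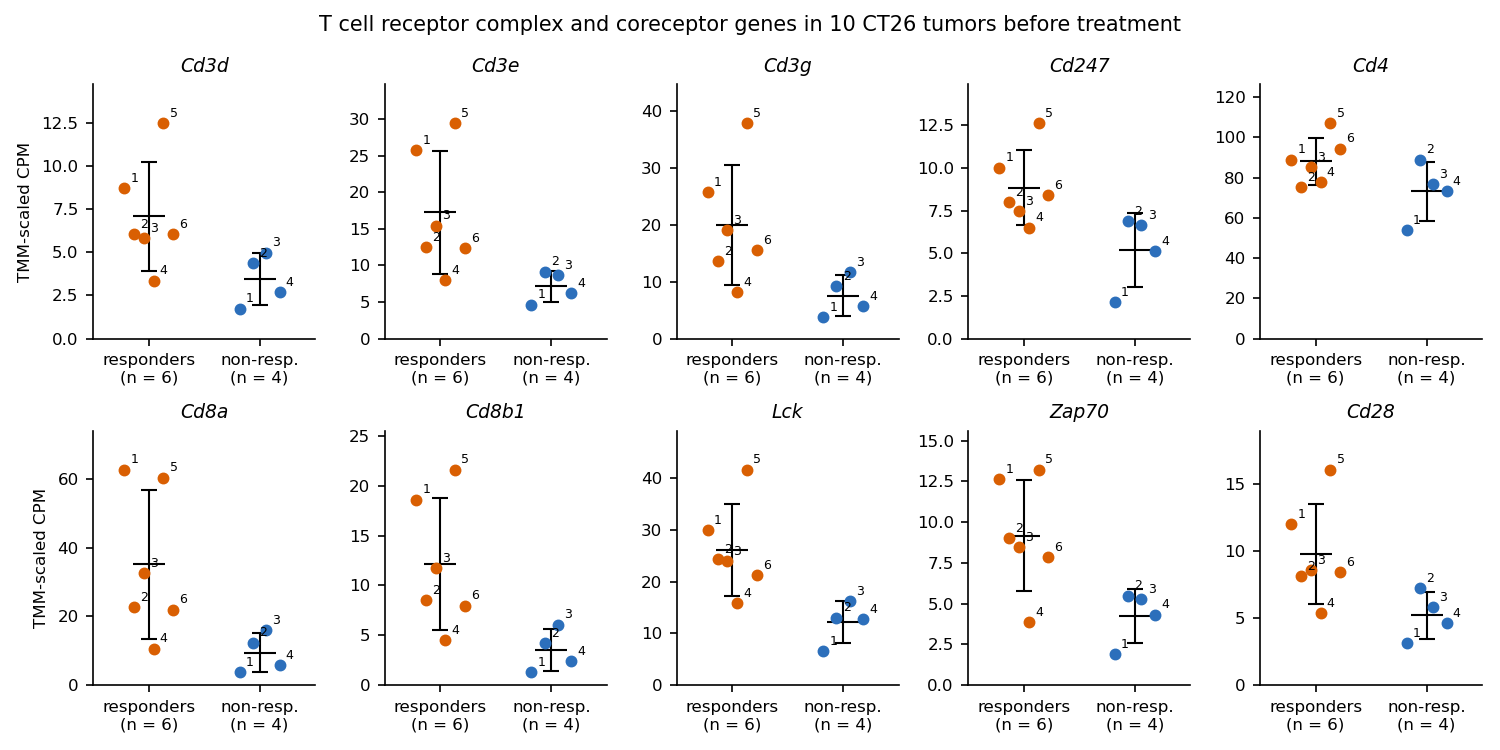
TMM-scaled CPM (y axis, linear, from 0) of each gene in the 6 responder (orange) and 4 non-responder (blue) tumors, with the tumor's number beside each point and bars for the mean and SD. Non-responder 1 is lowest in all 10 panels, and responder 4 falls among the non-responders in each.

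For all members but Cd4 the overlap came from 1 responder. For these 9 members the other 5 responders stood above all 4 non-responders, and responder 4 lay within the non-responders' range. Responder 4 was the lowest responder for 9 members and non-responder 1 was the lowest tumor for all 10, while responder 5 was the highest tumor for 9. Without responder 4, edgeR called 8 of the 10 members (all but Cd247 and Cd4), where 6.70% of all genes were called as higher, and 9 members separated the groups, where 9.26% of all genes did. Responder 4 was picked out from these same values, so that separation follows from the choice, and the calls without it are no independent support. Every other tumor, left out in turn, took the count the other way. Lck alone was called without non-responder 2, where edgeR called 1897 of 16238 genes in either direction. In each of the remaining 8 fits 0 members were called, with 9 or 10 members at an unadjusted p under 0.05. Calls over all genes also dropped in those 8 fits, to between 0 of 16239 (without non-responder 4) and 735 of 15944 (without responder 6). With all 10 tumors, 1293 of 16041 genes were called. DESeq2 on all 10 tumors called 9 members (all but Cd4), where it called 9.95% of all genes as higher.

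**Figure D2:**
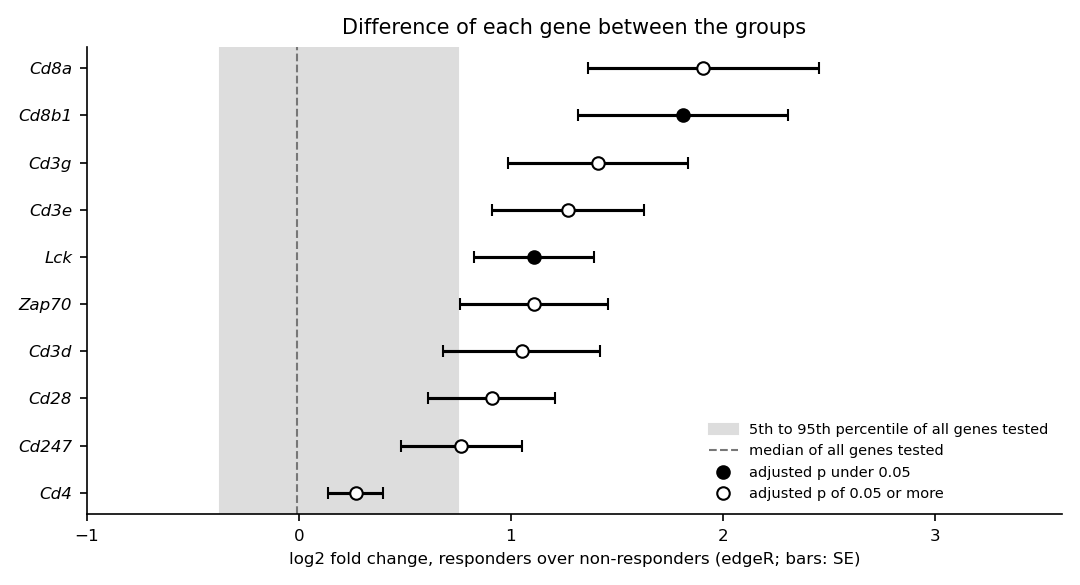
Log2 fold change of each gene, responders over non-responders (x axis), with its standard error as a bar and filled points for an adjusted p under 0.05. The gray band spans the 5th to 95th percentile of all 16041 genes. The points of all genes but Cd4 lie to the right of the band's upper edge.

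Among the signaling chains, Cd3e (ENSMUSG00000032093, chromosome 9, 44998740 to 45009627, minus strand) encodes the epsilon chain that pairs with both other CD3 chains. It was at 8.02 CPM in the lowest responder, 14.0 at the median and 29.4 in the highest, and at 4.64, 9.15, 8.67 and 6.21 CPM in non-responders 1 to 4. Responders 1 and 5 were far above the rest, and responder 4 was below 2 of the 4 non-responders. The means were 17.2 ± 8.43 CPM (SD, n = 6) and 7.17 ± 2.12 CPM (SD, n = 4). The log2 fold change of 1.27 (SE 0.36) missed the threshold, at an adjusted p of 0.0523 by edgeR.

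Cd3g (ENSMUSG00000002033, chromosome 9, 44969572 to 44980431, minus strand), the gamma chain gene, was at 8.15, 17.3 and 37.9 CPM in the lowest, median and highest responder and at 3.71, 9.22, 11.6 and 5.64 CPM in the non-responders. It had the widest range of the CD3 genes, the highest tumor standing 10.2 times above the lowest. Its log2 fold change was 1.41 (SE 0.43, adjusted p = 0.0611 by edgeR). Cd3d (ENSMUSG00000032094, chromosome 9, 44981786 to 44987339, plus strand), the delta chain gene, was the least abundant of the CD3 genes. It was so as well per kilobase of each gene's longest coding transcript. Cd3d was at 3.37, 6.07 and 12.5 CPM in responders and 1.74, 4.37, 4.99 and 2.68 CPM in non-responders. Its log2 fold change was 1.05 (SE 0.37, adjusted p = 0.0901 by edgeR). The order of tumors was nearly shared among the CD3 genes, with responders 5 and 1 at the top and non-responder 1 at the bottom.

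Cd247 (ENSMUSG00000005763, chromosome 1, 165788681 to 165877277, plus strand), the zeta chain gene, differed less between the groups. It was at 6.50, 8.20 and 12.6 CPM in responders and at 2.14, 6.87, 6.63 and 5.13 CPM in non-responders. Non-responder 1 stood apart, and the other 3 non-responders lay near or within the low end of the responders. The log2 fold change was 0.77 (SE 0.28, adjusted p = 0.104 by edgeR). The gene overlaps Pou2f1 on the opposite strand, and the strand setting of the counting is not given in the sources used here.

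The CD8 genes varied most among tumors. Cd8a (ENSMUSG00000053977, chromosome 6, 71373427 to 71379173, plus strand), the alpha chain gene, was at 10.6 CPM in the lowest responder, 27.6 at the median and 62.7 in the highest. It was at 3.67, 12.4, 16.0 and 5.70 CPM in the non-responders, a span of 17.1 times from non-responder 1 to responder 1. The means were 35.1 ± 21.6 CPM (SD, n = 6) and 9.42 ± 5.72 CPM (SD, n = 4). Its log2 fold change of 1.91 (SE 0.55) ranked 37th from the top among the genes tested, yet missed the threshold (adjusted p = 0.0535 by edgeR), and the responder tumors themselves spanned 5.93 times.

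Cd8b1 (ENSMUSG00000053044, chromosome 6, 71322788 to 71337494, plus strand) encodes the beta chain, which marks conventional cytotoxic T cells more narrowly than the alpha chain. It was at 4.49, 10.1 and 21.6 CPM in the lowest, median and highest responder and at 1.29, 4.18, 6.07 and 2.41 CPM in the non-responders. Its pattern followed that of Cd8a, with responder 4 between the non-responders and the others above them. The means were 12.2 ± 6.64 CPM (SD, n = 6) and 3.49 ± 2.09 CPM (SD, n = 4), and Cd8b1 was called higher in responders (log2 fold change 1.81, SE 0.49, adjusted p = 0.0472 by edgeR). The call was lost in 9 of the 10 fits that left out 1 tumor. It held without responder 4 (adjusted p = 0.0279 by edgeR), the tumor picked out from these same values. In all of those 9 fits but the one without non-responder 2, fewer genes were called over the whole table.

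The upstream window of Cd8a is given for comparison with the CD3 windows, and it held none of the 5 cores.
Cd8a (chr6:71373177-71373426, plus strand): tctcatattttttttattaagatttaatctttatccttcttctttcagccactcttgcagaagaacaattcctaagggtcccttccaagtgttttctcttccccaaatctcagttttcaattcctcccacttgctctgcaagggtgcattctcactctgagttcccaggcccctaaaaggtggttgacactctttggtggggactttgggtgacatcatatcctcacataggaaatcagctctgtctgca

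Cd4 (ENSMUSG00000023274, chromosome 6, 124864692 to 124888221, minus strand) was the member with the least difference between groups. It was at 75.3, 87.2 and 107.1 CPM in the lowest, median and highest responder and at 53.9, 89.0, 76.6 and 73.4 CPM in the non-responders. Of the 6 responders, 2 stood above all non-responders, and the whole range over the 10 tumors was 1.99 times. The log2 fold change was 0.27 (SE 0.13, adjusted p = 0.201 by edgeR). Cd4 also had the highest mean level per length in both groups: divided by the kilobases of its longest coding transcript, it stood at 28.4 ± 3.74 CPM per kb (SD, n = 6) in responders and 23.6 ± 4.68 (SD, n = 4) in non-responders. On the same per-length scale Cd3g stood at 19.5 ± 10.3 and 7.38 ± 3.47 CPM per kb and exceeded Cd4 in responder 5 (37.0 against 34.5). Cd3e stood at 11.8 ± 5.77 and 4.90 ± 1.45 CPM per kb, Cd8a at 11.2 ± 6.91 and 3.01 ± 1.83, and Cd8b1 at 8.20 ± 4.48 and 2.35 ± 1.41.

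**Figure D3:**
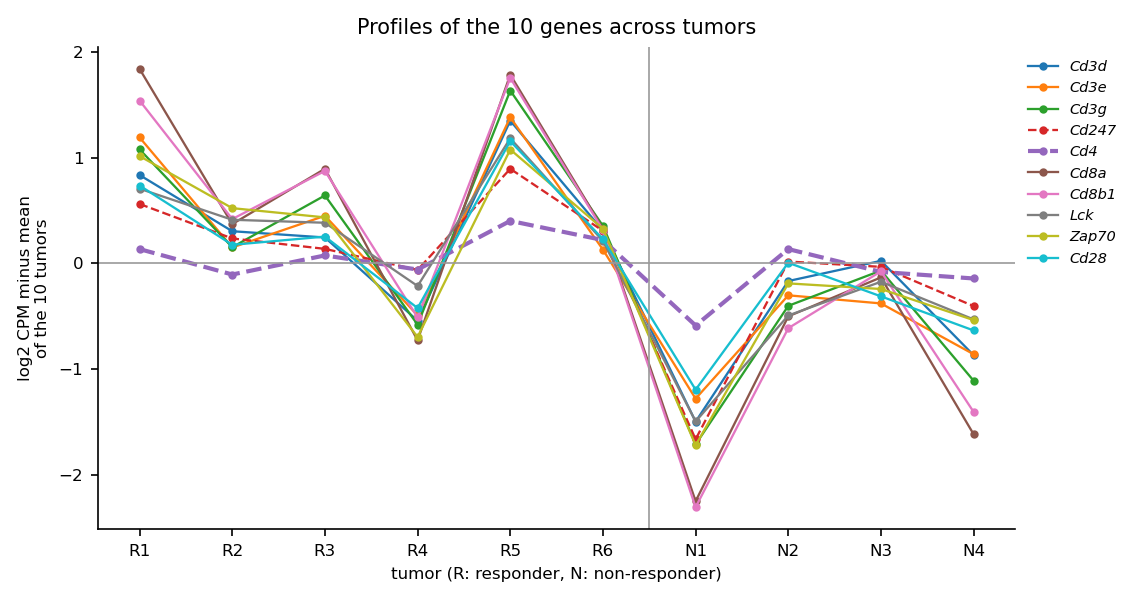
Log2 CPM of each gene minus its mean over the 10 tumors (y axis) in responders R1 to R6 and non-responders N1 to N4 (x axis). Lines only join the values of 1 gene, since the tumors have no order. Cd4 (thick dashed line) is the flattest profile, and Cd8a and Cd8b1 have the widest swings.

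Lck (ENSMUSG00000000409, chromosome 4, 129548344 to 129573641, minus strand), the kinase that starts the signal, had the smallest p of the members. It was at 15.8, 24.2 and 41.7 CPM in the lowest, median and highest responder and at 6.50, 13.0, 16.3 and 12.7 CPM in the non-responders. Responder 4 fell just under non-responder 3, and no other values of the groups crossed. The means were 26.2 ± 8.87 CPM (SD, n = 6) and 12.1 ± 4.08 CPM (SD, n = 4), and Lck was called higher in responders (log2 fold change 1.11, SE 0.28, adjusted p = 0.0413 by edgeR). The call held without non-responder 2 and without responder 4, the tumor picked out from these same values. It was lost in the other 8 fits that left out 1 tumor. In those 8 fits fewer genes were called over the whole table as well.

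Lck has 2 annotated starts, an outer one upstream and an inner one within the gene, and the deposited gene count pools transcripts from both. Their upstream windows are printed because Lck was one of the called genes and the windows differ in what they hold: 3 ETS matches and a RUNX match at the outer start, and 1 ETS and 1 E-box match at the inner start.
Lck, outer start (chr4:129573642-129573891, minus strand): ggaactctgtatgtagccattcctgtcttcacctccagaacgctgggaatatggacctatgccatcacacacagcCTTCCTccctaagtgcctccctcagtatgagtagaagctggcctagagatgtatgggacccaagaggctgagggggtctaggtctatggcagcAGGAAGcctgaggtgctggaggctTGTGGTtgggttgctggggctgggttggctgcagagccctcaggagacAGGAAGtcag
Lck, inner start (chr4:129558373-129558622, minus strand): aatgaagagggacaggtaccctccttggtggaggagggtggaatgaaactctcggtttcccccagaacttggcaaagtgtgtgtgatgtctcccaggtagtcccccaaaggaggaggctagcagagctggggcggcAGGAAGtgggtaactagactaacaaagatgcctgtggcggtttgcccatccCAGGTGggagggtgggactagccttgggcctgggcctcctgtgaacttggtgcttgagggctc

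Zap70 (ENSMUSG00000026117, chromosome 1, 36761798 to 36782818, plus strand), the kinase downstream of Lck, was at 3.86, 8.73 and 13.2 CPM in responders and at 1.90, 5.49, 5.29 and 4.31 CPM in non-responders. Responder 4 lay below 3 of the 4 non-responders, its lowest standing among the 10 genes. The log2 fold change was 1.11 (SE 0.35, adjusted p = 0.0685 by edgeR), with almost the same estimate as Lck but a wider error. Cd28 (ENSMUSG00000026012, chromosome 1, 60716800 to 60773359, plus strand) was at 5.38, 8.53 and 16.1 CPM in responders and at 3.15, 7.24, 5.81 and 4.64 CPM in non-responders, a log2 fold change of 0.91 (SE 0.30, adjusted p = 0.0778 by edgeR). Neither gene passed the test.

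Whether the members differed between the groups by unequal amounts was tested on the log2 ratio of 9 pairs in each tumor, with all 210 splits of the tumors enumerated in a two-sided exact permutation test. Cd8a relative to Cd4 was on average 1.58 log2 units higher in responders (−1.57 ± 0.86 against −3.16 ± 0.74, SD, exact p = 0.0286), and Cd8b1 relative to Cd4 was 1.53 higher (exact p = 0.0190). Cd4 relative to Cd3e was lower by 0.89 log2 units (2.48 ± 0.58 against 3.37 ± 0.20, SD, exact p = 0.0190), with 5 of 6 responders below all non-responders. Adjusted over the 9 pairs, each of these stood at an adjusted exact p of 0.0857, and 0 of 9 pairs passed, with 4 at an unadjusted exact p under 0.05. Without responder 4, which was picked out from these same tumors, these 3 pairs passed, each at an adjusted exact p of 0.0476. With any other 1 tumor left out, 0 of 9 pairs passed.

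On the per-length scale Cd4 exceeded Cd3e in every tumor, by 1.62 to 4.56 times in responders and 4.16 to 5.56 times in non-responders. Cd4 exceeded Cd8a by 1.43 to 7.42 times in responders and by 4.83 to 14.8 times in non-responders. Both ratios were highest in non-responders 1 and 4 and lowest in responders 1 and 5.

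The other pairs differed by less between the groups. Cd8a relative to Cd8b1 was 1.46 ± 0.17 log2 units in responders and 1.40 ± 0.14 in non-responders (SD, difference 0.06, exact p = 0.581), although the tumors spanned 17.1 times in Cd8a and 16.7 times in Cd8b1. Lck relative to Cd3e differed by −0.05 (exact p = 0.810) and Zap70 relative to Cd3e by −0.06 (exact p = 0.733). Cd8a relative to Cd3e was 0.70 higher in responders (exact p = 0.0667), Cd28 relative to Cd3e 0.29 lower (difference −0.29, exact p = 0.0476, adjusted 0.107) and Cd247 relative to Cd3e 0.31 lower (difference −0.31, exact p = 0.210), and these did not pass.

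**Figure D4:**
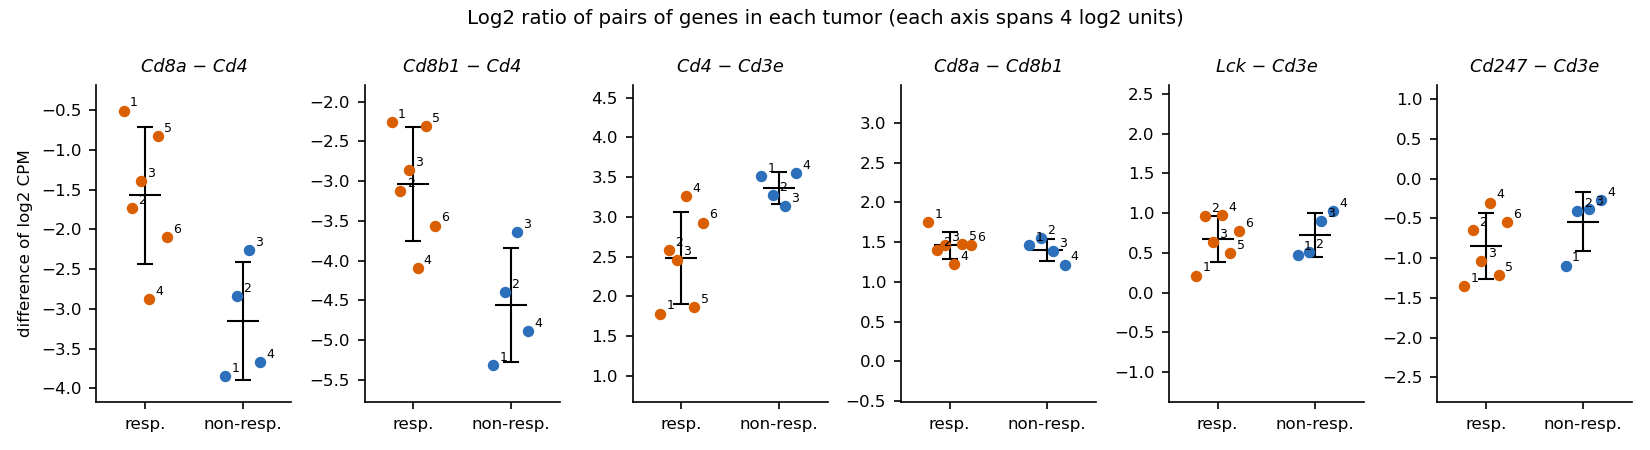
Difference of log2 CPM of 2 genes in each tumor (y axes, each spanning 4 log2 units), with the tumor's number beside each point and bars for the mean and SD over 6 responders (orange) and 4 non-responders (blue). For the CD8 genes relative to Cd4, 5 of 6 responders lie above all non-responders and responder 4 lies among them, and neither pair passed the test (adjusted exact p = 0.0857). Cd8a relative to Cd8b1 lies between 1.22 and 1.75 log2 units in the 10 tumors.

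Ptprc, which encodes CD45 and is carried by nearly all leukocytes, was itself called higher in responders (380.5 ± 63.1 against 250.6 ± 55.6 CPM, SD, n = 6 and 4, log2 fold change 0.60, adjusted p = 0.0413 by edgeR). Relative to Ptprc, 9 of the 10 members were higher on average in responders and Cd4 was lower. The differences were 1.25 log2 units for Cd8a (exact p = 0.0476), 1.19 for Cd8b1 (exact p = 0.0190), 0.50 for Lck (exact p = 0.0476) and −0.34 for Cd4 (exact p = 0.0190). Adjusted over the 10 members none passed, and without responder 4 the count was 7: Cd3e, Cd3g, Cd8a, Cd8b1, Lck and Zap70 higher and Cd4 lower. Responder 4 was picked out from these same tumors, and with any other 1 tumor left out the count was 0. With the log2 CPM of Ptprc as a covariate in edgeR, 0 of the 10 members were called and 0 had an unadjusted p under 0.05, and edgeR called 0 of all genes, with 845 at an unadjusted p under 0.05. In that fit Cd8a and Cd8b1 stood at log2 fold changes of 0.20 (SE 0.55) and 0.16 (SE 0.45). Ptprc itself separated the groups, at 326.2 CPM in the lowest responder and 307.4 CPM in the highest non-responder. The covariate thus overlaps with the response label, and the fit cannot tell a group difference from a difference in Ptprc.

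Other cells that express members were followed by marker lists, in which no gene was at 0 in all tumors. The summed level of 7 NK cell markers ranged from 31.7 to 60.5 CPM in responders and from 11.4 to 25.5 CPM in non-responders, without overlap. Of the 6 tested, 6 had an unadjusted p under 0.05, edgeR called 2 higher, the lectin-like receptor genes Klre1 and Klri2 (log2 fold changes 1.31 and 0.91), and DESeq2 called 4. Ncr1, which defines NK cells, was at 10.5 ± 4.30 and 5.20 ± 2.08 CPM (SD, log2 fold change 1.01, adjusted p = 0.0866 by edgeR and 0.0200 by DESeq2). The 8 macrophage markers summed to 2944 to 4367 CPM in responders and 2047 to 2756 CPM in non-responders, and 6 of 8 were called higher by edgeR and by DESeq2. Among 7 dendritic cell markers, which summed to 48.4 to 67.9 and 45.4 to 50.7 CPM, edgeR called 1, Xcr1, a chemokine receptor of the cross-presenting subset (6.13 ± 1.69 against 2.22 ± 0.68 CPM, SD), and DESeq2 called 2, Xcr1 and Clec9a. Of the 7 dendritic cell estimates, 5 were higher and 2 lower in responders (Cd209a and Zbtb46), with a median log2 fold change of 0.23. The part of NK cells, macrophages and dendritic cells in the values of Cd247, Lck, Zap70, Cd8a and Cd4 was not tested.

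B cell markers summed to 4.92 to 10.1 and 3.35 to 5.67 CPM, with 0 of 5 tested called by edgeR, 3 at an unadjusted p under 0.05 and 2 called by DESeq2. Immature thymocyte markers summed to 2.48 to 3.71 and 2.65 to 3.95 CPM, with Rag1 at no more than 2 counts in any tumor. Markers of naive T cells and lymph node, Ccr7 and Il7r among them, summed to 70.8 to 104.2 and 55.1 to 89.5 CPM with 0 of 3 tested called. In both of these lists 0 genes had an unadjusted p under 0.05 and DESeq2 called 0. Markers of other tissue also moved with the groups, and their part in the members' values was not tested: skeletal muscle markers summed to 347.6 to 1122 CPM in responders and 307.9 to 401.7 CPM in non-responders (2 of 5 called higher by edgeR, with 5 at an unadjusted p under 0.05 and 4 called by DESeq2), and adipocyte markers to 5.26 to 42.8 and 0.73 to 11.9 CPM (0 of 4 tested called by edgeR, with 4 at an unadjusted p under 0.05 and 4 called by DESeq2). Of 8 epithelial markers, 4 were nearly absent from the labelled colorectal carcinoma. Epcam reached at most 19 counts, Krt8 14, Krt18 3 and Vil1 4 in any tumor, while Krt20 and Cdh17 were present, and the 8 markers summed to 17.2 to 42.4 CPM in responders and 39.8 to 82.2 CPM in non-responders. Krt20 was the most abundant of the 8, at a mean of 38.6 CPM. All 4 tested were lower on average in responders (median log2 fold change −0.80), with 2 at an unadjusted p under 0.05 and 0 called by edgeR or DESeq2.

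The genes around the receptor were read in 7 lists beside the members. Of 80 listed genes 74 were tested, and 13 were called higher and 1 lower in responders, with a median log2 fold change of 0.44, where 8.06% of all genes were called. The constant regions of the receptor chains had 0 of 4 tested genes called by edgeR, with 3 at an unadjusted p under 0.05 and 2 called by DESeq2. Trac, the alpha constant region, was at 8.25, 16.7 and 32.8 CPM in the lowest, median and highest responder and at 4.48, 9.22, 10.9 and 6.30 CPM in the non-responders (log2 fold change 1.37, SE 0.39, adjusted p = 0.0514 by edgeR). Trbc2, a beta constant region that shares most of its sequence with Trbc1, had a log2 fold change of 0.86 (SE 0.29, adjusted p = 0.0833 by edgeR), and reads may be split between the pair.

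Among 19 proximal kinases and adaptors, 6 were called higher and 1 lower, with a median log2 fold change of 0.66. Grap2, an adaptor that links LAT to SLP-76, had the largest difference of those called (19.6 ± 5.63 against 9.68 ± 2.79 CPM, SD, log2 fold change 1.02, adjusted p = 0.0331 by edgeR). Lcp2, which encodes SLP-76, Fyb, Fyn and Vav1 had log2 fold changes of 0.67, 0.71, 0.52 and 0.50, and these are also expressed in myeloid or other cells. Plcg1, the phospholipase that splits the membrane lipid PIP2, was lower in responders (123.8 ± 6.87 against 144.9 ± 4.68 CPM, SD, log2 fold change −0.23, adjusted p = 0.0283 by edgeR). Which cells of the bulk tumor carry that difference was not tested.

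The negative regulators held 2 called genes of 15, both higher: Ptpn6, the phosphatase SHP-1 of all blood cells (log2 fold change 0.54, adjusted p = 0.0408 by edgeR), and Ubash3a, a T cell phosphatase-like suppressor (log2 fold change 0.65, adjusted p = 0.0403 by edgeR). All 15 estimates were above 0, with a median of 0.44. Among 8 costimulatory and adhesion receptors, Cd27 and Cd226 were called higher, at log2 fold changes of 1.08 and 1.31 (adjusted p = 0.0496 and 0.0330 by edgeR). Cd27 missed complete separation by responder 4, and Cd226 separated the groups. The ligands of these receptors, which sit on antigen-presenting cells, had 0 of 8 called by edgeR, with 4 at an unadjusted p under 0.05 and 4 called by DESeq2. Icosl and Cd86, the ones with the smallest p, had log2 fold changes of 0.32 and 0.35 (adjusted p = 0.0583 and 0.0722 by edgeR). Of the 8 ligand estimates, 5 were higher and 3 lower in responders, with a median of 0.18.

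Among 12 lineage transcription factors, Tbx21 and Bcl11b were called higher and the median was 0.09. Tbx21 encodes T-bet, the factor of type 1 and cytotoxic lymphocytes including NK cells, and was at 4.68 ± 2.26 and 1.57 ± 0.48 CPM (SD, log2 fold change 1.57, adjusted p = 0.0372 by edgeR). Bcl11b, which holds T cell identity, was at 5.61 ± 1.20 and 2.95 ± 0.88 CPM (SD, log2 fold change 0.93, adjusted p = 0.0378 by edgeR). Of 8 genes that receptor signaling induces early, 1 was called: Cd69, which keeps lymphocytes in tissue, at 5.25 ± 1.41 and 2.65 ± 0.83 CPM (SD, log2 fold change 0.98, adjusted p = 0.0419 by edgeR). Irf4 was next by p, at a log2 fold change of 0.37 (adjusted p = 0.271 by edgeR). Of the 8 estimates, 5 were higher and 3 lower in responders, with a median of 0.12. The list summed to 111.9 to 232.2 CPM in responders and 150.7 to 267.5 CPM in non-responders. Il2, Cd40lg and Cd70 were too low to test, with at most 7.42, 14 and 9 counts in any tumor.

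**Figure D5:**
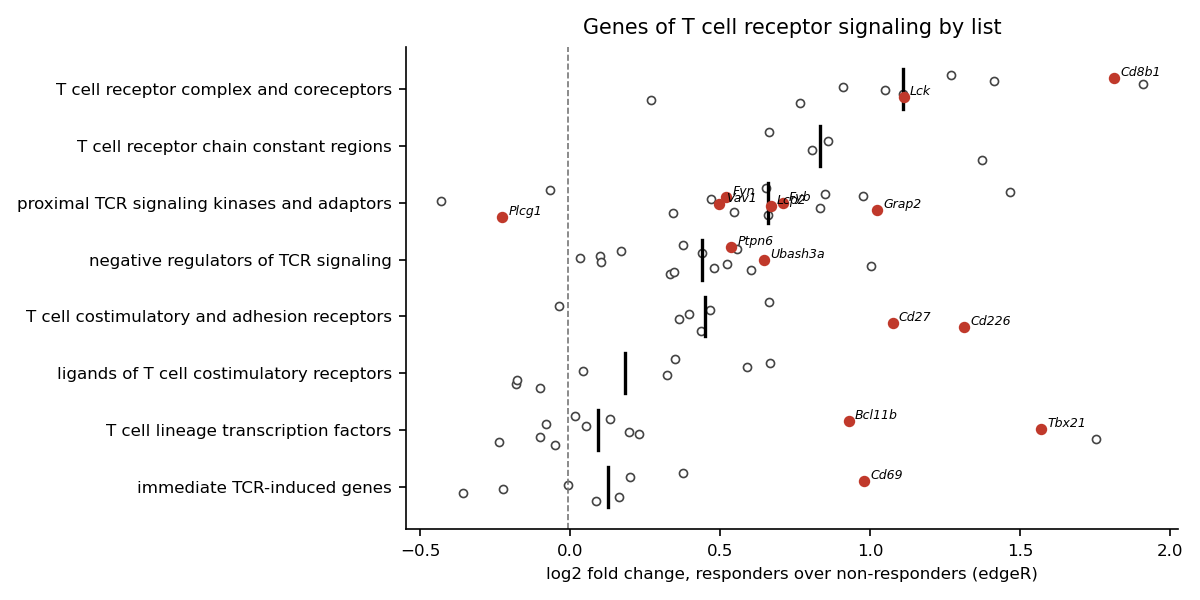
Log2 fold change, responders over non-responders (x axis), of the 10 members and of tested genes of the 7 signaling lists reported here (y axis, spread within a list for legibility). Red named points have an adjusted p under 0.05, vertical bars are list medians and the dashed line is the median of all genes. The list medians run from 1.11 for the members to 0.09 for the transcription factors.

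The genes most like the CD3 genes were sought by Pearson correlation of log2 CPM with the mean standardized level of Cd3d, Cd3e and Cd3g over the 10 tumors, as a description of libraries that share these tumors and their depth. Outside the members, the most alike of those reported here were Trac (r = 0.990), Gimap7 (0.989), a GTPase of lymphocytes, Cxcr6 (0.986), a chemokine receptor of tissue T cells, Tnfrsf1b (0.985), a receptor for TNF, Klrc3 (0.985), Themis (0.985), which sets receptor signaling in thymocytes, and Gmfg (0.984), an actin regulator of blood cells. Klrc3 averaged 0.67 CPM and belongs to a family of near-identical NK receptors, so its value is uncertain. Centred within each group, these 7 values stayed between 0.970 and 0.980. Only Cxcr6 and Gmfg of these 7 were called between the groups (log2 fold changes 2.15 and 0.64, adjusted p = 0.0469 and 0.0401 by edgeR).

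Among the members themselves, Cd8a (r = 0.989), Cd8b1 (0.988) and Cd28 (0.986) followed the CD3 mean within the first 10 genes of 16041, and Lck (0.966) and Zap70 (0.963) ranked 39th and 45th. Cd247 (0.915) ranked 359th and Cd4 (0.855) ranked 902nd. Genes of other leukocytes stood in between or lower, with Adgre1, the macrophage gene for F4/80, at 0.933, Ptprc at 0.932, Csf1r at 0.837 and Ncr1 at 0.719. Cd247 and Cd4 thus followed the CD3 genes less closely than Adgre1 did in these tumors, a gap that was not tested. Centred within each group, the values were 0.846 for Cd247, 0.791 for Cd4 and 0.883 for Adgre1. They were 0.866 for Ptprc, 0.721 for Csf1r and 0.482 for Ncr1.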

How the data were processed

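PolyA RNA from 10 untreated CT26 tumor pieces was sequenced (150 bp, paired end). Per the study's methods and the labels, the authors checked reads with FastQC, quantified them with Kallisto on GRCm38 and summed transcripts to genes with tximport. The deposited values are estimated counts per gene, not normalized (45.1% were not whole), and they were rounded here. The tximport scaling, annotation release and strand setting are not given in the sources used here. GENCODE vM21 supplied symbols and positions for 35991 of 36009 identifiers, and 9633 entries without a gene name in the table held 1.04 to 1.23% of counts and kept their identifiers.

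Genes were kept by filterByExpr (minimum count 10, total 15), leaving 16041 and removing at most 0.072% of counts. Groups were compared by edgeR 4.0.16 quasi-likelihood tests in R 4.3.3 with TMM factors and Benjamini-Hochberg adjustment at 0.05, tested on simulated data. The SE of an edgeR log2 fold change is its absolute value over the square root of its F statistic. The labels name no batch. Ratios used log2 CPM with a prior count of 2 and exact permutation tests (scipy 1.17.1), in which 210 splits allow no p under 0.00476. Alternatives were RLE or total-count scaling, DESeq2 1.42.0, no or a CPM filter, a Ptprc covariate, an adjusted p under 0.25, other prior counts and each tumor left out. Named genes were the members, Ptprc, in each list the called genes (or the 2 with the smallest p where under 2 were called), and the 8 genes most like the CD3 mean, of which some items are not reported here. Pou2f1, Ncr1, Xcr1, Adgre1, Csf1r and the marker genes named were chosen after their values were seen. Members and lists were chosen with earlier results of these data known. The 3 gamma constant genes listed were not matched by symbol.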

Additional observations from a re-analysis of the deposited data

Results flagged for a closer look

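Of 58 groups of member levels and ratios examined, 3 held a tumor that stood further from the others than Dixon's limit allows, and chance alone gives about 1 in 20, or 2.9 of 58. All 3 were non-responder 1, which was the lowest tumor for every member. Its log2 ratio of Cd247 to Cd3e was −1.09, where the other non-responders lay between −0.41 and −0.27. Its log2 ratio of Cd247 to Ptprc was −6.36, where the others lay between −5.49 and −5.39. Its log2 ratio of Zap70 to Ptprc was −6.53, where the others lay between −5.79 and −5.71. The lowest count of Cd247 in any tumor was 53.3 and that of Zap70 was 47.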

How the results depend on the processing

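The 10 members kept higher estimates in responders in 154 of 160 refits of single genes. The exceptions all came with Ptprc as a covariate, a gene that itself separated the groups. The log2 fold changes there were −0.23 for Cd3d, −0.072 for Cd3g, −0.19 for Cd247, −0.17 for Cd4, −0.0070 for Zap70 and −0.15 for Cd28. The count of members called, 2 by edgeR, was 9 with DESeq2, 0 with the Ptprc covariate, 10 at an adjusted p under 0.25 (a level that 6043 genes passed), and 0 to 8 with 1 tumor left out. Called genes of the signaling lists, 14 by edgeR, numbered 31 with DESeq2, 0 with the Ptprc covariate and 0 to 23 with 1 tumor left out. Members whose groups did not overlap numbered 0 to 9 with 1 tumor left out. Without responder 4 they numbered 9, where 9.26% of all genes separated with responders higher. Without non-responder 3 they numbered 2 (Cd8b1 and Lck), where 7.51% did. In each other fit they numbered 0, where 6.02% to 10.2% did. Gene pairs that passed numbered 0 to 3 and members that passed against Ptprc 0 to 7 over the same fits, the highest without responder 4 in each case. Ratios near 0 changed sign with 1 tumor left out: Lck to Cd3e between −0.13 and 0.048, Cd8a to Cd8b1 between −0.0029 and 0.11 and Zap70 to Cd3e between −0.21 and 0.033 on the log2 scale. Called genes over the whole table numbered 1293 by edgeR, 2573 with DESeq2, 931 without a filter, 0 with the Ptprc covariate (845 at an unadjusted p under 0.05), and from 0 without non-responder 4 to 1897 without non-responder 2. Scaling by RLE factors or total counts and the other filters and prior counts moved none of the members' counts past 1.5 times. Replicate numbers do not pair the tumors. At the lowest member count of 32.3, counting error is small beside the spread between mice, so the number of tumors limits the precision.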
